A study of Homo sapiens with 6 samples.

Results

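Mitochondrial ribosomal proteins are encoded in the nucleus, made in the cytosol and imported into mitochondria, where they form the ribosome that translates the messages of the mitochondrial genome. The 78 genes described here were all those in the count tables whose symbol begins with MRPL or MRPS and a number, of 19923 genes in all. Expression was compared between Kelly cells transfected with a control siRNA (siControl, 3 libraries) and Kelly cells transfected with an siRNA against METTL3 (siMETTL3, 3 libraries), each for 72 h with siRNA at 20 µM as the labels give it. Kelly is an established human neuroblastoma line with amplified MYCN, and the labels give its genotype as WT in both groups. The knockdown was transient, in 1 cell line, and the labels do not name separate cultures for the libraries, so p-values measure the spread between these libraries, which may be technical. METTL3 is the enzyme that places most N6-methyladenosine (m6A) marks on messenger RNA.

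The mitochondrial ribosome has a large subunit, which holds the site of peptide bond formation, and a small subunit, which reads the message. Some of its proteins have counterparts in the bacterial ribosome and others were gained in the mitochondrial lineage. It makes the core subunits of the respiratory chain and of ATP synthase, so its genes are usually studied together with those of oxidative phosphorylation. By their place in the ribosome, 51 of the 78 genes encode large subunit proteins and 26 encode small subunit proteins. MRPS30 and MRPS18A are large subunit proteins in spite of their symbols. The remaining gene, MRPS36, is now assigned to the alpha-ketoglutarate dehydrogenase complex and was counted in neither subunit.

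Total counts ranged from 15430000 to 21565013 per library, and the 78 genes took from 0.379% to 0.417% of them. METTL3 lay between 52.8 and 56.2 CPM in siControl and between 31.8 and 34.3 in siMETTL3, 61.0% of the control level (edgeR FDR 4.68e-06). CPM is the count of a gene scaled to the size of its library. FDR is the Benjamini-Hochberg adjusted p-value of edgeR's quasi-likelihood test over the 15311 genes tested, and a gene was called at an FDR under 0.05. Markers of noradrenergic neuroblastoma were abundant, with 9 of 9 tested and a summed level of 5265 to 5808 CPM in siControl and 7939 to 8411 in siMETTL3. That sum includes MYCN, amplified in this line, with 2880 to 3147 CPM in siControl and 4443 to 4743 in siMETTL3. The 5 mesenchymal markers summed to 34.7 to 37.2 and 57.9 to 63.7 CPM, respectively, while blood, Schwann cell, epithelial and endothelial lists each reached at most 9.25 CPM in a library. Whether these marker levels have a part in the results was not tested, and bulk RNA cannot tell fewer cells of a type from less RNA per cell. The 13 protein-coding genes of the mitochondrial genome are listed at 0 in every library, so the messages that this ribosome translates have no values here.

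All 78 genes passed the filter on low counts, with 64 to 4804 counts per gene and library. After METTL3 knockdown 24 of them fell (30.8%) and 5 rose (6.41%), and 49 did not pass the threshold. Among all genes tested, 19.2% were called lower and 18.6% higher. The share called in either direction, 37.2%, was close to the 37.8% of all tested genes. The log2 fold change was negative in 59 of the 78 genes and positive in 19, with a median of −0.12 against −0.0021 over all genes. Changes were small: the 24 genes that fell were at 64.9% to 88.6% of their control level, the 5 that rose were at 118% to 153%, and none of the 78 changed 2-fold. No test compared the family with other genes.

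The direction of the family was visible in the sum over its members. Summed over the 78 genes, expression was 3966, 4189 and 4228 CPM in siControl replicates 1, 2 and 3 and 3776, 3756 and 3781 CPM in siMETTL3 replicates 1, 2 and 3. The siMETTL3 libraries differed little among themselves and all lay below the siControl libraries. The means were 4128 ± 142 and 3771 ± 13.5 CPM (SD, n = 3), so the sum stood at 91.4% of control. Of the siControl libraries, replicate 1 lay nearest to the siMETTL3 libraries: its median log2 ratio to the siControl mean over the 78 genes was −0.060, against 0.025 and 0.032 in replicates 2 and 3 and −0.123, −0.120 and −0.116 in siMETTL3. All siMETTL3 libraries lay below all siControl libraries in 31 of the 78 genes and above them in 8, where the shares over all tested genes were 25.1% and 24.8%.

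**Figure D1:**
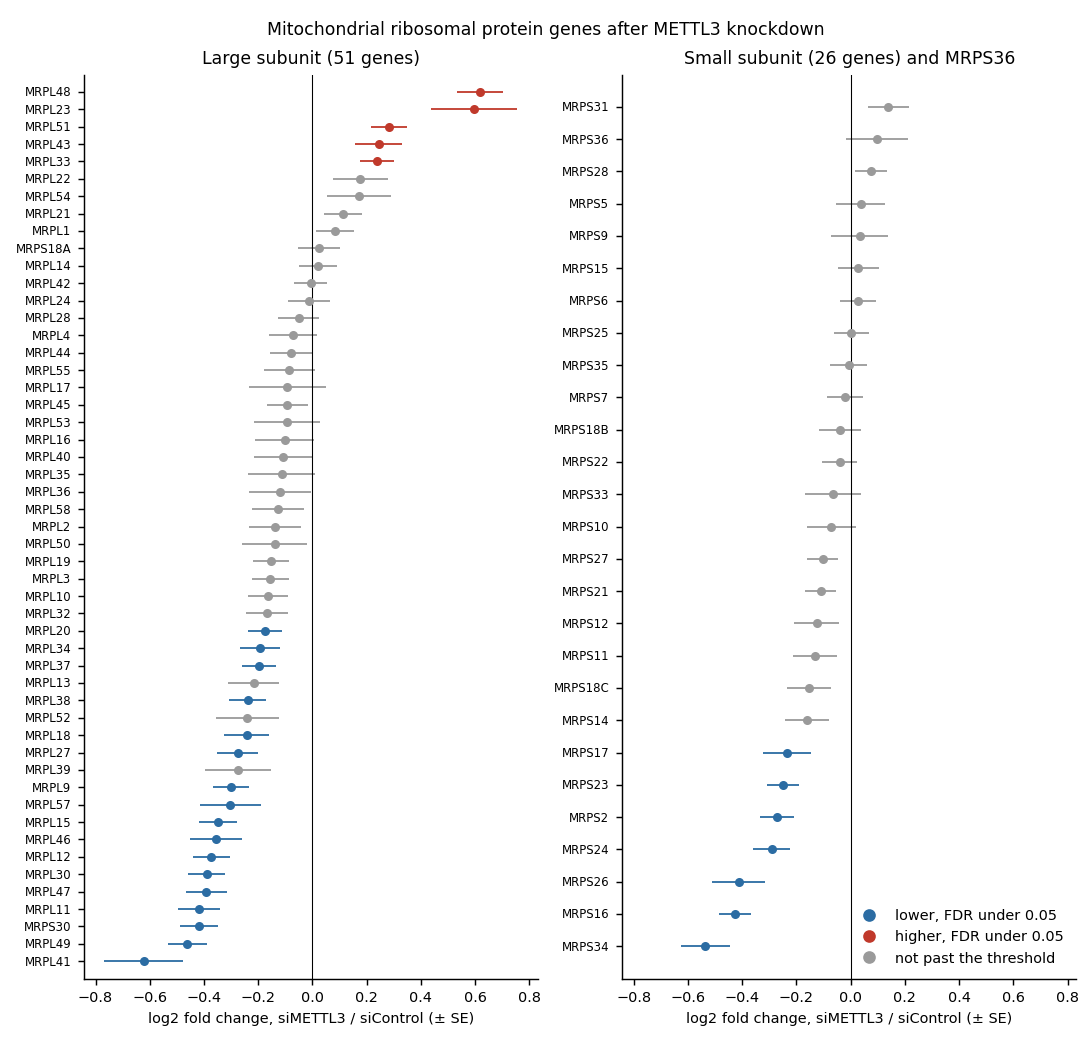
Log2 fold change (siMETTL3 over siControl, ± SE, 3 libraries per group) of each of the 51 large subunit genes (left) and of the 26 small subunit genes with MRPS36 (right), sorted by value. Blue points fell, red points rose and grey points did not pass the FDR threshold; the 5 red points are all in the large subunit, and the values run from −0.62 (MRPL41) to 0.62 (MRPL48).

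Some of these values moved by more than 1.5 times with the settings of the analysis. Without siMETTL3 replicate 1 the number higher was 2 and the number lower 17. Calls also became fewer over all tested genes, with 2091 higher and 2119 lower against 2849 and 2937 with all libraries. Correcting for the GC content and length of transcripts, the number higher was 11, the number lower 21 and the median −0.035, and correcting for intron length the median was −0.070. With the replicate number added to the first correction, 12 were higher. In a fit of genes without overlaps, 2 of the 41 such members were higher and 10 lower. These numbers equal those of the same 41 in the main fit, where their read counts are the same. The restricted fit therefore tells nothing about members with overlaps.

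Members shared promoter letters that the choice by symbol did not use. RefSeq promoter sequences (GRCh38.p14, 250 bases before to 50 after the annotated start) matched 69 of the 78 genes and 11812 of all tested genes. The motif CCGGAAG, the core bound by ETS factors such as the GABP complex, was searched on both strands and stood in 30 of 69 promoters (43.5%), against 17.8% of all promoters of the same length. The motif AAGATGGC, the core of the YY1 site, searched likewise, stood in 21 of 69 (30.4%), against 5.05% of all. Either motif was in 62.3% of the members' promoters and 21.7% of all, and no member's promoter held a pair of matches that overlap each other. Of the 22 AAGATGGC matches, 16 lay after the start of the transcript. This motif also holds the letters ATG of a start codon, and overlap of matches with start codons was not examined.

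The stretches below are shown because they hold a CCGGAAG match in genes that fell (MRPS34, MRPS16, MRPL47), rose (MRPL48, MRPL33) or did not pass the threshold (MRPL3). They are written 5′ to 3′ on the gene's strand, with the match in capitals; CTTCCGG is the same motif read on the other strand.
MRPS34: acctcttcctcgCTTCCGGccgcgaccgaa
MRPS16: gcggatcatccgCTTCCGGagtcgaggttt
MRPL47: cggcttgagacgCCGGAAGtgacgctatcg
MRPL48: gaatttcagaagCTTCCGGaactaaaatga
MRPL33: ccgggccgtgccCCGGAAGcagttgttgtt
MRPL3: ttgtaaaacgcaCCGGAAGtgggtccggcg
They lie at chr16:1773188-1773217 (minus strand), chr10:73252622-73252651 (minus), chr3:179604660-179604689 (minus), chr11:73787799-73787828 (plus), chr2:27771699-27771728 (plus) and chr3:131502986-131503015 (minus), respectively. MRPS34 held 3 such matches.

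The AAGATGGC matches are shown for genes that fell (MRPS30, MRPL49, MRPL46), rose (MRPL51) or did not pass (MRPL50).
MRPS30: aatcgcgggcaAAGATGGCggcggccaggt
MRPL49: cgtagcaggtaAAGATGGCagctaccatgt
MRPL46: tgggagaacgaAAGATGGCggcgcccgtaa
MRPL51: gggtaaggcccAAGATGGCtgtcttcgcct
MRPL50: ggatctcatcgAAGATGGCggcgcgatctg
Their positions are chr5:44808949-44808978 (plus), chr11:65122333-65122362 (plus), chr15:88467362-88467391 (minus), chr12:6493223-6493252 (minus) and chr9:101398577-101398606 (minus).

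Each motif was found among genes that fell, genes that rose and genes not past the threshold. CCGGAAG stood in 10 of the 23 promoters of genes that fell, in 4 of 4 of those that rose and in 16 of 42 of those not past the threshold. For AAGATGGC the counts were 7 of 23, 1 of 4 and 13 of 42. Promoters of cytosolic ribosomal protein genes, for comparison, held CCGGAAG in 34.3% and AAGATGGC in 11.9%. The other motifs searched, on both strands, differed less from all promoters: the NRF1 consensus site with at most 1 mismatch was in 15.9% against 13.7%, GCATGC in 13.0% against 8.88%, the E-box CACGTG in 7.25% against 9.63%, GGGCGG in 59.4% against 70.3%, and CCAAT in 29.0% against 36.3%. GCATGC is the centre of the NRF1 site, so matches of the pair can overlap; 4 member promoters held both, 7 held the NRF1 site alone and 5 held GCATGC alone. These are matches of letters, and binding was not measured.

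In the large subunit, 17 of 51 genes fell (33.3%, against 19.2% of all tested genes) and 5 rose (9.80%, against 18.6%). The median log2 fold change was −0.14. The summed level was 90.7% of control. Among the large subunit genes with a bacterial counterpart, 10 of 29 fell and 2 rose (median −0.15), and among those without one, 7 of 21 fell and 3 rose (median −0.13). MRPL55 was left out of that split, with a log2 fold change of −0.08 and an edgeR FDR of 0.509. Without siMETTL3 replicate 1, and likewise without siMETTL3 replicate 2, the number of large subunit genes that fell was 11. Corrected for the GC content and length of transcripts, the large subunit median was −0.044 and 8 of its genes were higher; corrected for intron length the median was −0.079. Without siMETTL3 replicate 1 the number of large subunit genes that rose was 2.

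The MRPL41 protein belongs to the mitochondria-specific large subunit proteins and has been described as a binding partner of BCL2. The gene had the largest decrease, with 36.4, 48.5 and 55.0 CPM in siControl and 30.4, 33.7 and 26.4 in siMETTL3. The siControl values were spread widely, and the highest siMETTL3 library lay just below the lowest siControl library. Its log2 fold change was −0.62 (SE 0.14, edgeR FDR 0.00728), and its counted span, chr9:137551879-137552555, was the shortest of the family at 677 bases.

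The stalk of the large subunit recruits translation factors, and both MRPL12, its repeated protein, and MRPL11, at its base, fell. MRPL12 stood at 143, 160 and 143 CPM in siControl and 116, 123 and 106 in siMETTL3, with no overlap between the groups. The log2 fold change was −0.37 (SE 0.068, edgeR FDR 0.000752). Nearly all of the MRPL12 span (99.9%) is also covered by AC139530.2 on the same strand, a gene model whose own log2 fold change was −0.30, so reads of these genes cannot be told apart. MRPL11 stood at 50.02, 53.6 and 54.1 CPM in siControl against 35.4, 42.0 and 40.6 in siMETTL3. It was lower in each siMETTL3 library than in any siControl library (log2 fold change −0.42, SE 0.078, edgeR FDR 0.000913).

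Around the exit of the peptide tunnel lie the proteins of MRPL47 and MRPL23, which moved in opposite directions. MRPL47 was measured at 51.3, 60.5 and 59.7 CPM in siControl and 44.3, 42.0 and 44.4 in siMETTL3. The siMETTL3 libraries were tightly grouped below the controls, with a log2 fold change of −0.39 (SE 0.076, edgeR FDR 0.0012). Over the alternatives the MRPL47 value ran from −0.47 to −0.18. A small part of its span (0.75%) overlaps ACTL6A on the opposite strand, at −0.44. MRPL23, which lies at chr11:1947278-1984522 next to the imprinted H19 and IGF2 genes, had 4.36, 4.30 and 4.25 CPM in siControl and 7.19, 6.71 and 5.65 in siMETTL3. It was the least abundant of the 78 genes in CPM, and its control libraries were nearly identical. Its log2 fold change was 0.60 (SE 0.16, edgeR FDR 0.0093), but the call was lost without siMETTL3 replicate 1 (FDR 0.0528).

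MRPL48 and MRPL46 encode proteins of the central protuberance, the part of the large subunit that faces the head of the small subunit. MRPL48 had 30.6, 27.0 and 24.8 CPM in siControl and 42.4, 42.3 and 42.2 CPM in siMETTL3. The groups did not overlap, and the siMETTL3 libraries were almost the same. This was the largest increase in the family (log2 fold change 0.62, SE 0.085, edgeR FDR 8.42e-05), in a span that no other gene of the tables overlaps (chr11:73787872-73865133), and it passed the threshold under each of the 17 alternatives. MRPL46 had 24.4, 27.7 and 30.7 CPM in siControl and 22.2, 21.4 and 21.0 in siMETTL3. It fell (log2 fold change −0.36, SE 0.096, edgeR FDR 0.00991), although 99.7% of its span is covered by AC013489.1, whose log2 fold change was 0.13.

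MRPL49, MRPL30 and MRPS30 were also among the large subunit genes with the smallest FDR. MRPL49 stood at 48.1, 43.6 and 45.9 CPM in siControl and 34.4, 32.98 and 32.7 in siMETTL3, a clear separation (log2 fold change −0.46, SE 0.072, edgeR FDR 0.000248). All of its span lies within SYVN1 on the opposite strand, an E3 ubiquitin ligase gene with a log2 fold change of −0.42, and the counting used no strand. MRPL30 was at 45.8, 46.9 and 48.0 CPM in siControl and 34.7, 35.5 and 37.1 in siMETTL3. These groups did not overlap either (log2 fold change −0.39, SE 0.069, edgeR FDR 0.000616), and the span is wholly covered by the gene model AC079447.1 on the same strand, at −0.15. MRPS30, whose protein sits in the large subunit, had 81.2, 90.6 and 93.1 CPM in siControl and 65.9, 62.1 and 70.1 in siMETTL3. Its log2 fold change of −0.42 (SE 0.070, edgeR FDR 0.000412) came from a span with no overlapping gene.

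The other genes that rose also belonged to the large subunit. MRPL51 had 54.6, 56.9 and 62.7 CPM in siControl and 68.5, 72.1 and 70.9 in siMETTL3, with no overlap between groups (log2 fold change 0.28, SE 0.067, edgeR FDR 0.00475). A part of its span (24.8%) overlaps NCAPD2, a condensin gene that moved the other way at −0.20. MRPL33 had 79.1, 81.2 and 75.5 CPM against 97.8, 86.9 and 93.6 in siMETTL3. The separation was narrow (log2 fold change 0.24, SE 0.063, edgeR FDR 0.00925), the call was lost without siMETTL3 replicate 1 (FDR 0.0657), and 95.5% of the counted span overlaps BABAM2 (0.18) or RBKS (0.27). MRPL43 had 26.3, 32.5 and 30.2 CPM against 35.6, 34.7 and 35.1, at a log2 fold change of 0.24 (SE 0.087, edgeR FDR 0.0393). It lost the call when siControl replicate 1 (FDR 0.142) or siMETTL3 replicate 1 (0.12), 2 (0.0969) or 3 (0.098) was left out, and 91.4% of its span is overlapped, for the most part by SEMA4G, at 0.64.

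**Figure D2:**
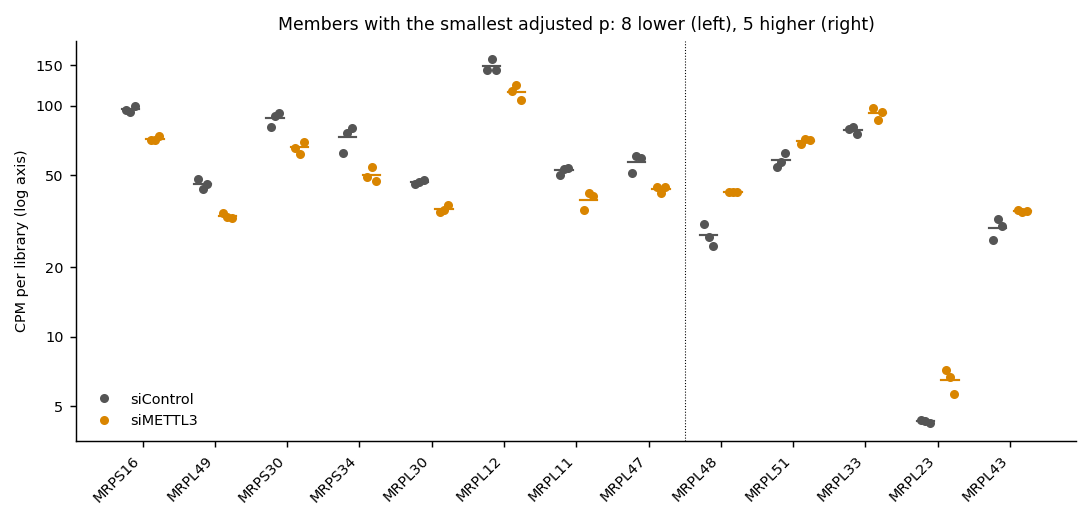
CPM in each library (points, log axis) with the group mean (line) for the 8 genes that fell with the smallest FDR, left of the dotted line, and for the 5 that rose. The groups do not overlap in any of these 13 genes, and MRPL48 shows the widest gap among the genes that rose.

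In the small subunit, 7 of 26 genes fell and none rose, by edgeR at an FDR under 0.05. The 26.9% called was below the 37.8% of all tested genes (19.2% lower and 18.6% higher). None in the subunit was higher at an unadjusted p under 0.05, by DESeq2 or by limma-voom either. Its median log2 fold change was −0.088 and its summed level was 92.2% of control. Among small subunit genes with a bacterial counterpart, 4 of 16 fell (median −0.12), and among those without one, 3 of 10 (median −0.052). The difference between the subunits was not tested. Corrected for the GC content and length of transcripts, the small subunit median was −0.017 and 2 of its genes were called higher.

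MRPS16, a small subunit protein with a bacterial counterpart and a known cause of respiratory chain deficiency when mutated, had the smallest FDR of the 78 genes. It stood at 96.2, 94.4 and 99.95 CPM in siControl and 71.0, 71.2 and 73.8 in siMETTL3. The libraries of each group were close together and the groups far apart. The log2 fold change was −0.43 (SE 0.058, edgeR FDR 7.34e-05), and the span, chr10:73248843-73252693, overlaps no other gene.

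MRPS34, a mitochondria-specific protein needed for a stable small subunit, was measured at 62.7, 76.2 and 80.2 CPM in siControl and 49.2, 54.3 and 47.2 in siMETTL3. All siMETTL3 libraries were below the controls, with the largest decrease in the small subunit (log2 fold change −0.54, SE 0.090, edgeR FDR 0.000492). Its span shares 27.3% with EME2, a DNA repair gene on the opposite strand at −0.60. MRPS24, near the path by which the message enters, had 66.9, 76.6 and 76.3 CPM against 58.9, 62.4 and 58.1 (log2 fold change −0.29, SE 0.070, edgeR FDR 0.0047). Its span lies wholly in the readthrough gene URGCP-MRPS24, at −0.19. The small subunit genes MRPS2, MRPS17, MRPS23 and MRPS26 also fell, with log2 fold changes from −0.24 to −0.41. MRPS17 had an FDR of 0.0498 and was lost under several alternatives.

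Levels within the family were compared per kilobase of transcript. Mean CPM per kilobase over the 6 libraries ran from 3.95 to 169 with a median of 30.2, against a median of 9.91 over the tested genes with a transcript in the reference. The most abundant were MRPL33 (169), MRPL3 (135), MRPL12 (131), MRPS28 (119) and MRPS24 (99.7), and the least abundant were MRPL50 (4.67), MRPL17 (4.35) and MRPL35 (3.95), all in CPM per kilobase. The counts cover introns as well, so these levels overstate genes with long or overlapped spans. MRPL3, which reaches the peptidyl transferase centre, had 219, 240.4 and 268 CPM in siControl and 220.2, 215 and 218 in siMETTL3. Its siControl replicate 1 lay within the siMETTL3 range, and the log2 fold change of −0.16 did not pass the threshold (edgeR FDR 0.0887). MRPS28 was at 0.07 (FDR 0.348) in a span 99.9% covered by AC036214.3, and the rare MRPL50, MRPL17 and MRPL35 had log2 fold changes of −0.14, −0.09 and −0.11 with FDRs of 0.382, 0.647 and 0.506. MRPS36 was at 0.10 (FDR 0.551).

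Of the 24 genes that fell, 16 passed the threshold in each of the alternatives they entered, leaving out each library included. They were MRPL9, MRPL11, MRPL12, MRPL15, MRPL30, MRPL41, MRPL46, MRPL47 and MRPL49 with MRPS2, MRPS16, MRPS23, MRPS24, MRPS26, MRPS30 and MRPS34. Of the 5 that rose, MRPL48 and MRPL51 did so. The spans of MRPL9, MRPL11, MRPL12, MRPL30, MRPL46, MRPL47, MRPL49, MRPL51, MRPS2, MRPS24 and MRPS34 overlap another gene. These genes therefore did not enter the fit without overlaps, and no other alternative separated shared reads. No called gene changed sign under any alternative.

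Overlapping genes share reads in these counts, and 37 of the 78 spans overlap another gene of the tables. In those, 14 fell (37.8%) and 3 rose (8.11%), with a median of −0.14. Over all tested genes 19.2% were called lower and 18.6% higher, and the shares over overlapped genes alone were not computed. In the 41 spans without overlap, 10 fell and 2 rose (median −0.10), where 18.4% and 20.8% of all tested genes without overlap were called lower and higher. The summed CPM of the 41 was 91.4% of control, the same as over all 78. Copies were searched for only as exact matches in annotated transcripts. A named pseudogene exists for 36 genes, and 6 had over 5% of their 50-base transcript stretches in another gene. These were MRPL45 (18.6%), MRPL36 (11.8%), MRPS36 (8.45%), MRPS10 (7.70%), MRPL3 (7.66%) and MRPS17 (5.53%). Copies of introns, inexact copies and the mapping of reads to copies were not examined. Of those 6, MRPS17 was called lower and its count is uncertain for that reason too.

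The counted span and the fold change moved together in this family. Across the 78 genes Spearman's rho between span and log2 fold change was 0.40, against 0.18 across 14590 tested genes; genes of 1 set of libraries are not independent. The members are short, with a median span of 11940.5 bases against 35448. In the shortest 26 (677 to 5410 bases), 13 fell and 1 rose, with a median of −0.21; among all tested genes in that range of spans 27.4% were called lower and 8.47% higher, with a median of −0.16. In the middle 26 (5894 to 16365 bases), 8 fell and none rose by edgeR (0 also at an unadjusted p under 0.05, by DESeq2 and by limma-voom), with a median of −0.13, against 25.6% and 10.8% of all genes of such span and a median of −0.07. In the longest 26 (16489 to 351418 bases), 3 fell and 4 rose, with a median of −0.0020, against 16.1% and 21.9% and a median of 0.03. The part of span in the members' decrease was not tested.

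**Figure D3:**
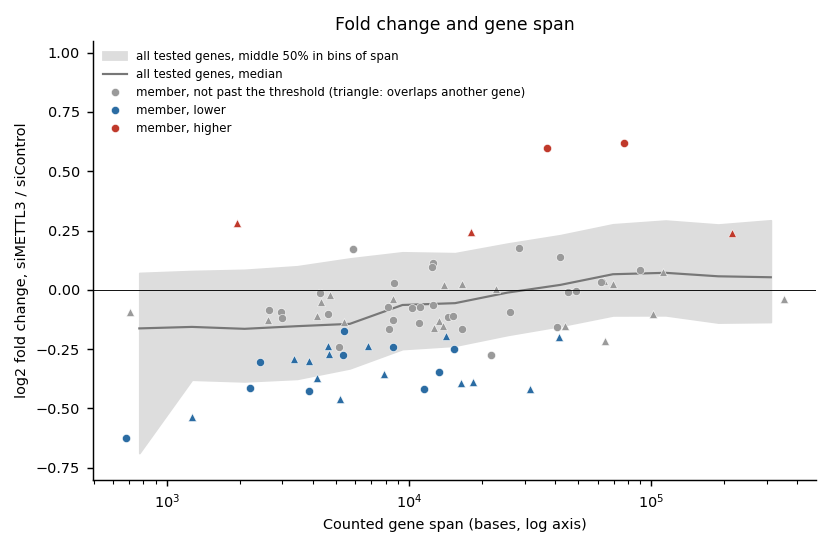
Log2 fold change of the 78 genes (points; triangles overlap another gene, blue fell, red rose, grey not past the threshold) against counted gene span in bases (log axis), with the median (line) and middle 50% (band) of all tested genes in bins of span. Short members lie mostly below 0 and, in the shortest 26, have a median of −0.21 where all genes of such span have −0.16.

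Letters of the m6A motif were counted in the reference transcripts. GGACT, the commonest form of the motif that METTL3 methylates, occurred a median of 1 time per member transcript and 3 times per transcript over all tested genes, and 28.2% of members had none against 8.71% of all. Per kilobase the medians were 0.917 and 0.929. Members that fell had a median of 0.904 per kilobase, those that rose 1.49 and the others 0.875, and Spearman's rho with the log2 fold change was 0.04 over the 78 genes. Methylation itself was not measured in these libraries.

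Among 5 tested genes for proteins of the same ribosome under other symbols, 2 fell and 1 rose. Over all tested genes 19.2% were called lower and 18.6% higher. The log2 fold change was negative in 4 of the 5, with a median of −0.23. GADD45GIP1, a large subunit protein also known as CRIF1, had 63.4, 86.9 and 86.5 CPM in siControl and 50.8, 54.7 and 51.2 in siMETTL3. All siMETTL3 libraries were below the controls (log2 fold change −0.59, SE 0.11, edgeR FDR 0.00131). AURKAIP1 of the small subunit fell by 0.29 on the log2 scale (FDR 0.00424). DAP3, a GTP-binding small subunit protein, rose by 0.24 (FDR 0.0145) but was lost without any 1 of the siMETTL3 libraries (FDR 0.0526 to 0.0615). The spans of GADD45GIP1 and DAP3 each overlap another gene of the tables. CHCHD1 was at −0.23 (FDR 0.0524) and PTCD3 at −0.18 (FDR 0.105), neither past the threshold.

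Of 30 genes that assemble and modify the mitochondrial ribosome, 8 fell, 2 rose and the median was −0.045; the 33.3% called was near the 37.8% of all tested genes. MALSU1, which acts late in large subunit assembly, had 94.9, 90.2 and 93.3 CPM in siControl and 73.5, 65.1 and 73.8 in siMETTL3, with a log2 fold change of −0.39 (SE 0.065, edgeR FDR 0.000383). METTL17, a small subunit assembly factor, was at −0.36 (FDR 0.00225) and NGRN, which supports the large subunit's ribosomal RNA, at −0.35 (FDR 0.0011). MRM1, a methyltransferase for that RNA, rose by 0.43 (FDR 0.00839), and ERAL1, a chaperone of the small subunit's RNA, rose by 0.25 (FDR 0.0151; 0.0593 without siMETTL3 replicate 1 and 0.0637 without replicate 3). The spans of MALSU1, NGRN and ERAL1 overlap other genes.

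Of 17 factors that work with the ribosome in translation, 11 fell (64.7%, against 19.2% of all tested genes), none rose by edgeR and the median was −0.21. The difference from other lists was not tested. At an unadjusted p under 0.05 edgeR had 1 higher, and DESeq2 and limma-voom called 0. The elongation factor gene GFM1 had 134, 140.7 and 141 CPM in siControl and 115, 105 and 112 in siMETTL3. The groups were well apart (log2 fold change −0.33, SE 0.058, edgeR FDR 0.000617). GFM2, which acts in ribosome recycling, was at −0.37 (FDR 0.000913) and PDF, which removes the formyl group from new peptides, at −0.55 (FDR 0.00197). Each of these 3 spans overlaps at least 1 other gene of the tables.

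Among 20 genes that charge mitochondrial transfer RNAs, 5 fell and 2 rose (median −0.046). The 35.0% called was near the 37.8% of all tested genes. IARS2, the isoleucine enzyme, had 154, 155 and 169 CPM in siControl and 89.6, 87.0 and 90.6 in siMETTL3, at 55.8% of control. This was a larger change than that of any member (log2 fold change −0.84, SE 0.058, edgeR FDR 2.22e-07), in a span with no overlap. VARS2 (−0.33, FDR 0.00888) and HARS2 (−0.30, FDR 0.00738) also fell, while EARS2 (0.41, FDR 0.000434) and FARS2 (0.22, FDR 0.00852) rose; the spans of HARS2 and EARS2 overlap other genes. The VARS2 call was lost without siMETTL3 replicate 3 (FDR 0.0572), that of HARS2 without siControl replicate 2 (0.0507), and that of FARS2 without siMETTL3 replicate 1 (0.0709) or siControl replicate 2 (0.0502).

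Of 22 genes for mitochondrial DNA maintenance, transcription and RNA processing, 7 fell and 2 rose (median −0.13). Here 40.9% were called, near the 37.8% of all tested genes. HSD17B10, a subunit of mitochondrial RNase P, was at 72.4, 75.3 and 76.9 CPM in siControl and 54.3, 54.0 and 50.2 in siMETTL3 (log2 fold change −0.50, SE 0.063, edgeR FDR 3.92e-05). TBRG4, which stabilises mitochondrial messages, was at −0.37 (FDR 0.000531) and the transcription factor TFB2M at −0.30 (FDR 0.00208). MTERF1, named as a transcription termination factor, rose by 0.52 (FDR 0.000295) and POLG2, the accessory subunit of the DNA polymerase, by 0.22 (FDR 0.0323). The POLG2 call was lost when any library but siControl replicate 1 was left out (FDR 0.0702 to 0.117).

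Of 11 listed regulators of mitochondrial biogenesis, 10 were tested, 4 rose (40.0%, against 18.6% of all tested genes) and none fell by edgeR, with a median of 0.16. At an unadjusted p under 0.05 edgeR had 1 lower, and DESeq2 and limma-voom called 0. MYCN, the amplified oncogene of this line, had 3036, 3147 and 2880 CPM in siControl and 4443, 4726 and 4743 in siMETTL3. The groups were far apart (log2 fold change 0.62, SE 0.061, edgeR FDR 5.17e-06). The coactivator PPARGC1B rose by 0.57 (FDR 1.43e-05). NRF1, a transcription factor for nuclear genes of mitochondrial proteins, had 91.2, 83.4 and 76.5 CPM against 105.6, 98.9 and 97.4. It rose by 0.26 (SE 0.070, edgeR FDR 0.0089), and without siMETTL3 replicate 1 the FDR was 0.0602.

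The members' decrease was beside a larger one of the cytosolic ribosomal protein genes, of which 70 of the 85 tested (88 in the tables) fell and 1 rose, with a median of −0.44. For nuclear genes of oxidative phosphorylation subunits, 25 of the 86 tested (89 in the tables) fell and 7 rose, with a median of −0.12, close to that of the members. Called in either direction were 37.2% of these genes (29.1% lower, 8.14% higher) and 83.5% of the cytosolic genes (82.4% and 1.18%). Over all tested genes the share was 37.8% (19.2% and 18.6%). The cytosolic genes also differed among the siControl libraries, with median log2 ratios to the siControl mean of −0.131, −0.0094 and 0.137 in replicates 1, 2 and 3, against −0.437, −0.406 and −0.421 in siMETTL3; replicate 1 was the lowest control here as in the members. Differences between these families were not tested.

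**Figure D4:**
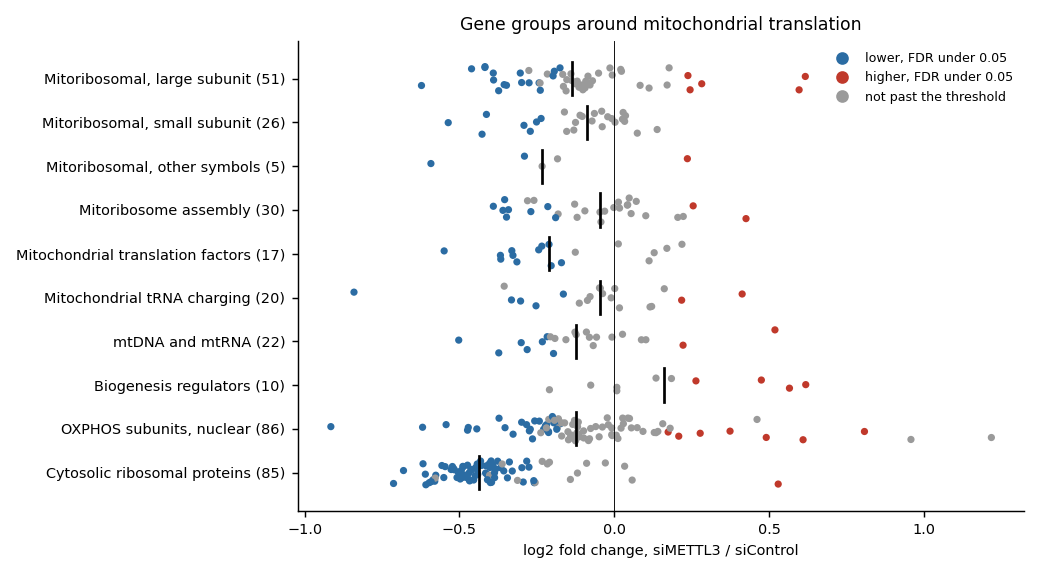
Log2 fold change (siMETTL3 over siControl) of each tested gene (points) in the mitoribosomal subunits and in the other gene groups, with the number of genes in parentheses and the median as a black bar; blue fell, red rose, grey not past the threshold. Cytosolic ribosomal protein genes have the lowest median (−0.44), the mitoribosomal subunits −0.14 and −0.088, and the biogenesis regulators 0.16.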

How the data were processed

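Poly(A) RNA of 6 Kelly libraries was sequenced. The deposited values are raw read counts per gene, 1 table per library. Per the submitters' processing notes, FastQC 0.11.5, Trimmomatic 0.36, HISAT2 2.1.0 and featureCounts (Subread 1.5.3) were used with GRCh38. Per the file headers, the authors counted reads over whole gene spans of a protein-only GENCODE release 33 annotation, introns included, with a read over several genes counted for each and no strand option, so counts of overlapping genes share reads. Whether duplicate reads were removed is not given in the sources used here.

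Counts were filtered with filterByExpr, scaled by TMM and tested with edgeR 4.0.16 (R 4.3.3; robust quasi-likelihood F-test, 6 libraries, no covariate), with Benjamini-Hochberg adjustment over 15311 genes. CPM is relative to the TMM-scaled library size. SE was taken as the size of the log2 fold change over the root of its F statistic. Libraries of a group differed by more than sampling noise (chi-square per degree of freedom 3.05 to 16.1). Overlaps and coordinates are those of the tables; transcripts, GC content and GGACT counts are from GENCODE release 44 (95.3% of tested genes), and promoters from RefSeq (GRCh38.p14).

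Named genes were METTL3, MYCN and NRF1; of the 78, the 8 with the smallest FDR in each direction, the 5 with the largest change, the 5 most and 3 least abundant per kilobase and those in groups of 5 or fewer; and up to 3 genes per direction of each other list. Further genes (MRPL9, MRPL15, MRPL36, MRPL39, MRPL45, MRPL46, MRPS2, MRPS10, MRPS17, MRPS23, MRPS26 and overlapping partners) were named after their values were seen. TBRG4 was listed under a pair of symbols and counted once. The members and lists were chosen with earlier results of these data known. Alternatives are given in the closing section.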

Additional observations from a re-analysis of the deposited data

How the results depend on the processing

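Of 17 alternatives, library scaling, filters, DESeq2 1.42.0 and limma-voom (limma 3.58.1) kept 5 genes higher and 20 to 24 lower. Scaling by total count moved the share of higher calls among all called genes to 53.9%. Restricted to genes without overlaps, 2 of the 41 members were higher and 10 lower (large subunit 2 and 7, small subunit 3 lower), and 1852 of all genes were higher and 1898 lower. The 12 member calls were the same as in the main fit, from the same read counts. The offset for GC content and length gave 11 higher (large 8, small 2) and medians of −0.035 (large −0.044, small −0.017); joined with the replicate block it gave 12 (8 and 3) and −0.035 (−0.046 and −0.014). The intron length offset gave −0.070 (large −0.079). The cause was not tested for any of these, apart from fewer genes entering the restricted fit.

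Leaving out 1 library at a time, 2 to 6 members were higher (large subunit 2 to 6), 17 to 29 lower (large 11 to 21, small 6 to 8), and the medians ran from −0.17 to −0.097 (large −0.20 to −0.10, small −0.11 to −0.064). Over all tested genes, 2091 to 3178 were then higher and 2119 to 3216 lower. The lowest median of all members and of the large subunit came without siControl replicate 1, and that of the small subunit without siMETTL3 replicate 3. The sign changed under at least 1 alternative in 27 members, 0 of them called; among the genes named by the rule these were MRPL17 (0.039 with the intron length offset; −0.22 to 0.0086 with 1 library left out, positive without siControl replicate 3), MRPL35 (−0.19 to 0.0021, positive without siControl replicate 2), MRPL50 (0.044 with the GC and length offset, 0.047 with the block added) and MRPL55 (0.017 with the intron length offset). Over the 49 named genes with a result, 505 of 518 values under the other alternatives kept direction and side of the threshold, as did 268 of 294 when a library was left out, with 21 calls lost.

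Same-numbered libraries of the groups deviated together only weakly (r 0.040, 0.049 and 0.067, each under 0.1), so the numbers were not taken as pairs. Differently numbered libraries all had lower values, with r from −0.064 to 0.026. With the replicate block 5 members were higher and 25 lower (MRPL39 added), with a median of −0.12. Over all tested genes the block gave 3047 higher and 3119 lower, against 2849 and 2937 without it. Low counts limit MRPL23 most.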
